A study of Homo sapiens with 4 samples.

Results

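Genes that charge tRNAs with amino acids, and genes of the ATF4 amino acid response, were compared between U937-AE and U937-Mt cells. The set holds 49 genes, listed by name and found through the gene annotation of the array's probe sets: 19 cytosolic tRNA synthetases and 30 genes of the response, of 19775 genes that the array names with a single symbol. Of the 49 genes, 47 had a probe set of their own. The probe sets of MARS1 and QARS1 carry the symbols of several genes and were not analysed here. Genes whose mean log2 signal reached that of the array medians, the floor used below, in at least 1 line are termed measured, which applied to 45 of the 49. CHAC1 and CBS were not.

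U937 is a human leukemia line of the monocytic lineage. U937-AE is a single clone that carries HA-tagged AML1/ETO, the fusion protein of the 8;21 translocation, behind a mouse metallothionein promoter that zinc switches on. U937-Mt is a bulk population with the empty pSGMtNeo vector, and both lines received 100 µM ZnSO4 for 8 hours, so that zinc itself is shared. For each line, RNA of 3 extractions was mixed into 1 pool and put on 2 copies of an Affymetrix expression array (HG-U133 Plus 2.0). The labels call the copies replicas, and both they and the methods describe the pool, so they were read here as 1 sample per line. With 1 pool per line no test between the lines was possible. The range over the 4 array comparisons, each of 1 copy per line, covers hybridization error only, the precision is limited by the number of arrays, and an effect of AML1/ETO cannot be told apart from the choice of the clone. In a bulk RNA pool, fewer cells of a kind and less RNA per cell cannot be told apart either.

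Aminoacyl-tRNA synthetases join each amino acid to its tRNA and fall into class I and class II by the fold of the catalytic domain. When a tRNA is left uncharged, the kinase GCN2 phosphorylates the initiation factor eIF2. Most translation then slows while that of ATF4 mRNA increases. ATF4, a basic leucine zipper factor, pairs with C/EBP proteins on composite sites and activates genes for amino acid synthesis, amino acid transport and many cytosolic synthetases. Unfolded protein in the endoplasmic reticulum reaches the same factor through the kinase PERK. In leukemia cells this response is known for its part in asparagine and serine supply.

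The RefSeq promoter table (GRCh38.p14, 250 bases before to 50 after each start) held 41 of the 49 genes. The composite motif TGATGNAAN, searched on both strands, was found in 14 of the 41 genes (34.1%), against 4.45% of the 27305 genes in the table. The match lay upstream of the start in 7 genes, across it in 3 and downstream in 4. The windows with upstream matches are shown because they hold the letters that an ATF4 site has, and that of SLC1A4 because this gene was called lower in U937-AE. Each is printed 5′ to 3′ on the strand of the gene, and capitals mark the match. Where the match is on the opposite strand, the capitals read as its reverse complement.
ASNS (chr7:97872458-97872486, minus strand): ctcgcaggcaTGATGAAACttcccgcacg
ATF3 (chr1:212565206-212565234, plus strand): aaggtcaggaTGATGGAAGgctgtcatat
SLC1A5 (chr19:46784893-46784921, minus strand): aggaagtggcTGATGCAAGctgtccaggg
CHAC1 (chr15:40953251-40953279, plus strand): ctcccctgccGTTGCATCActcctgccag
GARS1 (chr7:30594834-30594862, plus strand): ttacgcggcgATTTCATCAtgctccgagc
IARS1 (chr9:92293693-92293721, minus strand): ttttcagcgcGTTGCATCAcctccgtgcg
AARS1 (chr16:70289676-70289704, minus strand): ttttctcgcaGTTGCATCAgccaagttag
SLC1A4 (chr2:64989381-64989409, plus strand): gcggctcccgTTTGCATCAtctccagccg

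The AML1 letters TGTGGT were found in 3 of the 41 genes (7.32%), namely AARS1, CARS1 and WARS1, against 15.6% of all genes in the table. TGCGGT, the other form of the AML1 core that the authors name, was not searched. AARS1 was the gene with both motifs upstream of a single start, and its 250 bases before the start (GRCh38.p14, chr16:70289507-70289756, minus strand, 59.2% G and C) follow with both matches in capitals. The composite letters lie at -188 to -180 and the AML1 letters at -27 to -22, so they do not overlap.
AARS1 promoter: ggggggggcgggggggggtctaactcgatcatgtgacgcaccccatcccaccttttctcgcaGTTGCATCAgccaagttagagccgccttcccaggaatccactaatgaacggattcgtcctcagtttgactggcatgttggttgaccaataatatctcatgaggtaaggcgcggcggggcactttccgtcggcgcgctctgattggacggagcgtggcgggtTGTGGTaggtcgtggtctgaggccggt

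The cyclic AMP response element TGACGTCA was found in 0 of the 41 genes and in 2.25% of the genes of the table, and the ER stress response element in 0 of the 41 and 0.0916% of the genes. No match says only that these letters are not in these windows, and a match is no evidence of binding.

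The check of the labels was RUNX1T1, the gene that encodes ETO. In U937-AE 1 of its probe sets read 1362 and 1299, while in U937-Mt it read 8.6 and 7.6, below the floor, which is at least 8.86-fold higher in U937-AE. Its other probe sets were not called. Over probe sets, and as a description, the copies of U937-AE correlated at r = 0.935, those of U937-Mt at r = 0.919 and arrays of different lines at 0.910 to 0.916. Of 9 monocytic markers 7 were measured, and 5 of these, SPI1, ITGB2, LYZ, MPO and CSF3R, were lower in U937-AE, where PTPRC was higher (LYZ lost its call after the median shift described below, PTPRC after quantile normalization). The summed signal of the marker list was 20372 and 18687 in U937-AE, compared with 41688 and 40472 in U937-Mt, and its part in the results below was not tested. This sum is weighted to bright probe sets, among them MPO, with 1898 and 1558 against 16117 and 14591. ITGB2 had 5424 and 4739 against 12200 and 12673, and PTPRC 8183 and 7831 against 5113 and 5149. Of 20 markers of other cell types 9 were measured, with none called. NCAM1, CD2, CD79A, HBB, KRT8, COL1A1 and COL1A2 were above the floor on all arrays. NCAM1 had 1117 and 897 in U937-AE, compared with 995 and 860 in U937-Mt, and CD79A 1051 and 831 against 1000 and 988. CD3D, CD3E, ALAS2, EPCAM, KRT18, CDH1 and COL3A1 were below the floor on all arrays.

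A gene was called when all 4 comparisons exceeded 1.5-fold in 1 direction, after signals under the array median were raised to that median (119.5 and 129.7 in U937-AE, 146.8 and 153.6 in U937-Mt). Of the 45 measured genes 3 were lower in U937-AE, 0 were higher and 42 were not called. The 3 genes, 6.67% of those measured, were the alanyl-tRNA synthetase AARS1, the mTORC1 inhibitor DDIT4 and the neutral amino acid transporter SLC1A4. Over all 12934 measured genes, 6.12% were lower and 2.60% higher, so the share called lower in the set lay near that of the array. With 1 array left out, fewer than 4 comparisons had to pass, so the rule was looser. Without U937-AE replicate 1 the set had 6 lower, where 8.66% of all genes were, and without U937-AE replicate 2 it had 4, where 11.1% were. Without U937-Mt replicate 1 it again had 3, where 11.9% of all genes were. Without U937-Mt replicate 2 it had 5 of 46 measured, where 10.4% of all genes were. The median log2 difference, U937-AE minus U937-Mt, was -0.14 over the 45 genes (SD over genes 0.46) and -0.10 over all measured genes.

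**Figure D1:**
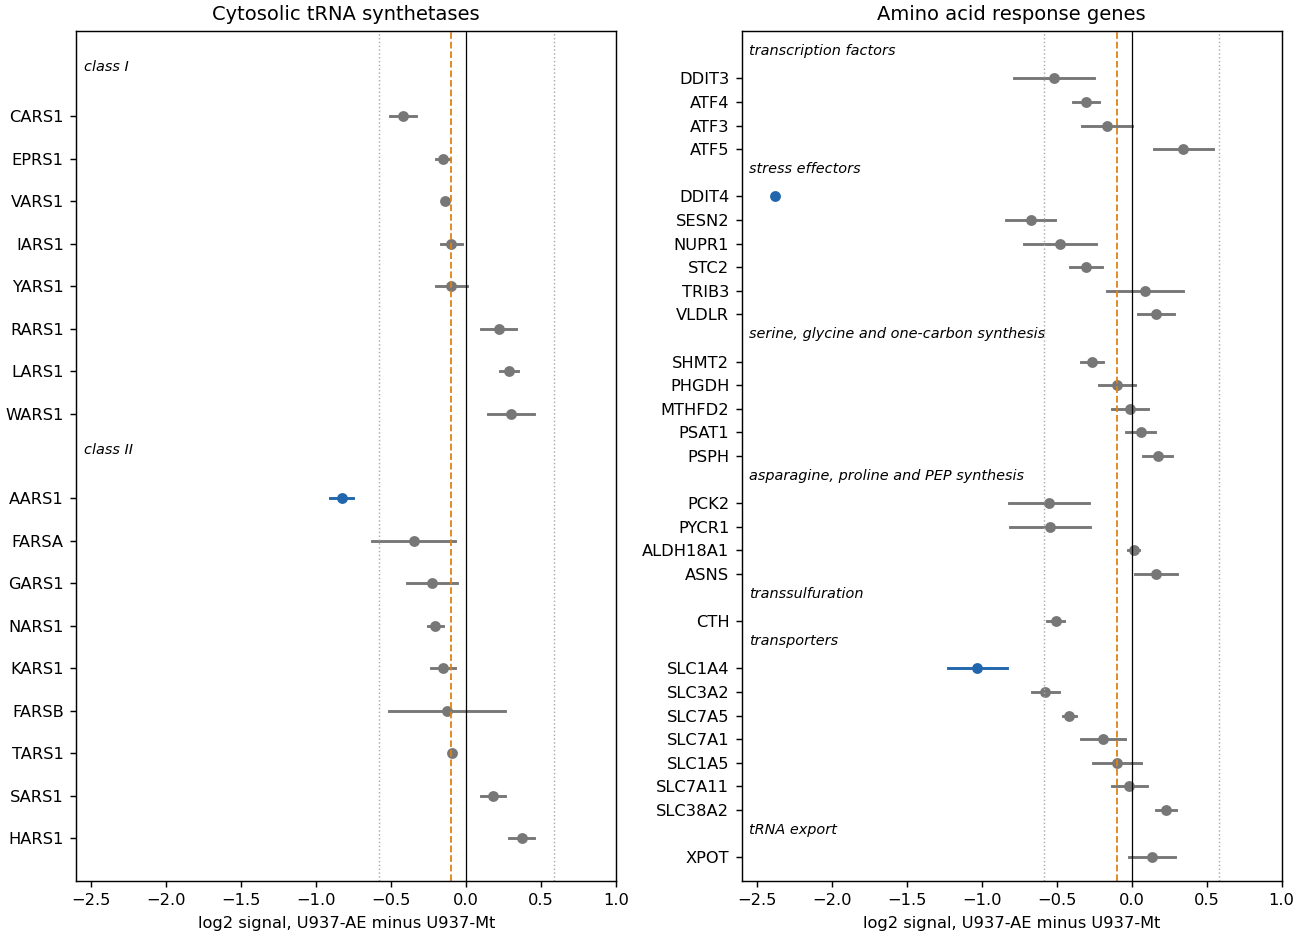
Difference in log2 signal, U937-AE minus U937-Mt, of the measured genes by role. Points are means and lines the range over the 4 comparisons of single arrays, blue marks genes called lower, the dashed line is the median of all measured genes (-0.10) and dotted lines mark 1.5-fold. AARS1, DDIT4 and SLC1A4 lie to the left of the dotted line with their whole range, and no point lies beyond the dotted line on the right.

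The sign of a small difference in this set depended on how arrays were scaled, because U937-Mt arrays had the higher medians and the brighter spike-in controls. With the scaling the authors used, 31 of the 45 genes had a mean difference below 0. With arrays shifted to the same median 15 did, and with arrays scaled to the hybridization spike-ins 13 did, while the median of all genes moved from -0.10 to 0.17 and 0.24. Under these 3 scalings and quantile normalization, 4 in all, 13 genes stayed below 0, 11 stayed above 0 and 21 took either sign. These counts rest on the brightest probe set of each gene. For FARSA, among the 13, the other probe set was above 0 under the authors' scaling (0.09). DDIT4 was called lower under all 4 scalings. AARS1 and SLC1A4 stayed below 0 but were not called after the median shift (-0.56 and -0.76) or the spike-in scaling (-0.49 and -0.69).

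Among the class I synthetases, 8 of 10 were measured and none was called. CARS1, the cysteinyl-tRNA synthetase, had signals of 4583 and 5116 in U937-AE, compared with 6463 and 6533 in U937-Mt, a log2 difference of -0.42 (range -0.51 to -0.34). Both U937-AE arrays were below both U937-Mt arrays, and CARS1 stayed below 0 under all 4 scalings, with -0.15 after the median shift. At the other end of the class were RARS1, LARS1 and WARS1, the enzymes for arginine, leucine and tryptophan, with log2 differences of 0.22, 0.28 and 0.30. The U937-AE arrays were the higher ones for each of these, LARS1 with 7067 and 6676 against 5714 and 5564, and all 3 stayed above 0 under the 4 scalings. Dimmer probe sets ran the other way in WARS1, with 1503 and 1394 against 2029 and 1618 (-0.32), and in LARS1, with 278 and 189 against 355 and 452 (-0.80), and were not called. EPRS1, the fused enzyme for glutamate and proline, was counted here with class I only. It differed by -0.16, and VARS1, IARS1 and YARS1, for valine, isoleucine and tyrosine, by -0.14, -0.10 and -0.10. The sign of each of these genes turned with the median shift. A slightly dimmer probe set of EPRS1 went the opposite way, at 0.15 (range 0.11 to 0.19). Its dimmest probe set was at -0.01.

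The class II synthetases included the only called enzyme. AARS1, which charges alanine tRNA, gave signals of 3807 and 3787 in U937-AE, compared with 7109.7 and 6412 in U937-Mt. The copies of each line lay close together and the lines did not overlap. AARS1 was 1.78-fold lower in U937-AE, with a log2 difference of -0.83 (range -0.91 to -0.75).

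The other 8 class II enzymes, all measured, were not called. FARSA and FARSB, the subunits of the phenylalanyl-tRNA synthetase, differed by -0.35 and -0.13, and the arrays of FARSB overlapped between the lines. The other probe set of FARSA, of similar brightness, was above 0 at 0.09 (range 0.02 to 0.16), so the sign for FARSA depended on the probe set. GARS1, NARS1, KARS1 and TARS1, for glycine, asparagine, lysine and threonine, differed by -0.23, -0.21, -0.15 and -0.09 and turned sign with the median shift. SARS1 and HARS1, for serine and histidine, were above 0 at 0.18 and 0.37 and remained so under the 4 scalings. HARS1 had the highest difference of the whole set, with signals of 3348 and 3445 in U937-AE, compared with 2741 and 2518 in U937-Mt. With arrays scaled to the spike-ins, HARS1 and LARS1 were called higher, as were 10.6% of all measured genes.

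Over the 17 measured synthetases the median difference was -0.13 (SD over genes 0.30), or -0.03 from the median of all genes, and 12 were below 0. It turned to 0.14, with 3 below 0, when arrays were shifted to the same median. The signals of the array copies did not overlap in 10 synthetases with U937-AE lower and in 5 with U937-AE higher, against 37.1% and 26.3% of all measured genes. After the median shift these were 2 and 10 synthetases, against 17.1% and 46.1% of all measured genes, with floored signals.

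Those mitochondrial synthetases that are encoded by separate nuclear genes were read as a related list. Of 17 genes 15 were measured and none was called by its brightest probe set. Their median difference was 0.07, or 0.34 after the median shift, with a range from -0.40 (FARS2) to 0.26 (SARS2). EARS2 was at 0.18 by its brightest probe set, while a dimmer one was called higher, at 1.08 (range 0.96 to 1.20). Of the genes that anchor the cytosolic complex of synthetases, AIMP1 differed by 0.02, and AIMP2 and EEF1E1 were not analysed here. A dimmer probe set of AIMP1 was at 0.34 (range 0.17 to 0.51) and its dimmest at -0.05, neither called.

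None of the transcription factors at the head of the response was called. ATF4 had 12155 and 13476 in U937-AE, compared with 15959.6 and 15675 in U937-Mt. The U937-AE arrays were the lower ones, with a log2 difference of -0.31 (range -0.39 to -0.22), which was -0.04 after the median shift and 0.04 with the spike-in scaling. These are levels of mRNA, while ATF4 is known to be controlled mainly in translation.

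DDIT3 encodes CHOP, a partner of ATF4 in prolonged stress. Its signals were 627 and 449 in U937-AE, compared with 775 and 746 in U937-Mt, a difference of -0.52 (range -0.79 to -0.25) that was not called. ATF3, a factor induced downstream of ATF4, had 393 and 403 against 494 and 402, and the lines overlapped (-0.16). ATF5, a relative of ATF4 that is likewise controlled in translation, was above 0 at 0.35 and stayed so under the 4 scalings. The 4 factors had a median difference of -0.24, which turned to 0.04 after the median shift.

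Among the stress effectors the gene set had its largest difference. DDIT4, also known as REDD1, restrains mTORC1 through the TSC complex. Its signals were 320.5 and 324 in U937-AE, compared with 1665 and 1688 in U937-Mt. The copies of each line differed little from each other, and DDIT4 was 5.21-fold lower in U937-AE (log2 difference -2.38, range -2.40 to -2.36). Under the other scalings the log2 difference lay between -2.32 and -2.04. The single probe set of DDIT4 has the suffix _s_at, which marks probes shared by several transcripts, so a cross-check with another probe set was not possible.

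SESN2, a leucine sensor that also restrains mTORC1, gave 923 and 778 in U937-AE, compared with 1394 and 1314 in U937-Mt. The lines did not overlap, and the difference of -0.67 (range -0.84 to -0.51) was not called because 1 of the 4 comparisons, at 1.42-fold, fell short of 1.5-fold. The dimmer probe set of SESN2 gave 623 and 531 against 1277 and 1382, was called lower and differed by -1.21. SESN2 was also called when the probe sets were averaged (-0.94). It was called too without U937-AE replicate 1 (-0.80) or U937-Mt replicate 2 (-0.72), where fewer comparisons had to pass.

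The remaining effectors were not called. TRIB3, a pseudokinase that dampens ATF4, had 4072 and 3882 in U937-AE, compared with 4356 and 3215 in U937-Mt, with overlapping lines (0.09). NUPR1 and STC2, a stress-induced nuclear protein and a secreted glycoprotein, lay near the floor with differences of -0.48 and -0.31, where the floors alone put a gene at -0.27. VLDLR, a lipoprotein receptor, differed by 0.16. CHAC1, which degrades glutathione, was not measured, with signals of 45 and 66 in U937-AE, compared with 202 and 103 in U937-Mt, so that 1 array lay above its floor. The median difference of the 6 measured effectors was -0.39, or -0.12 after the median shift.

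**Figure D2:**
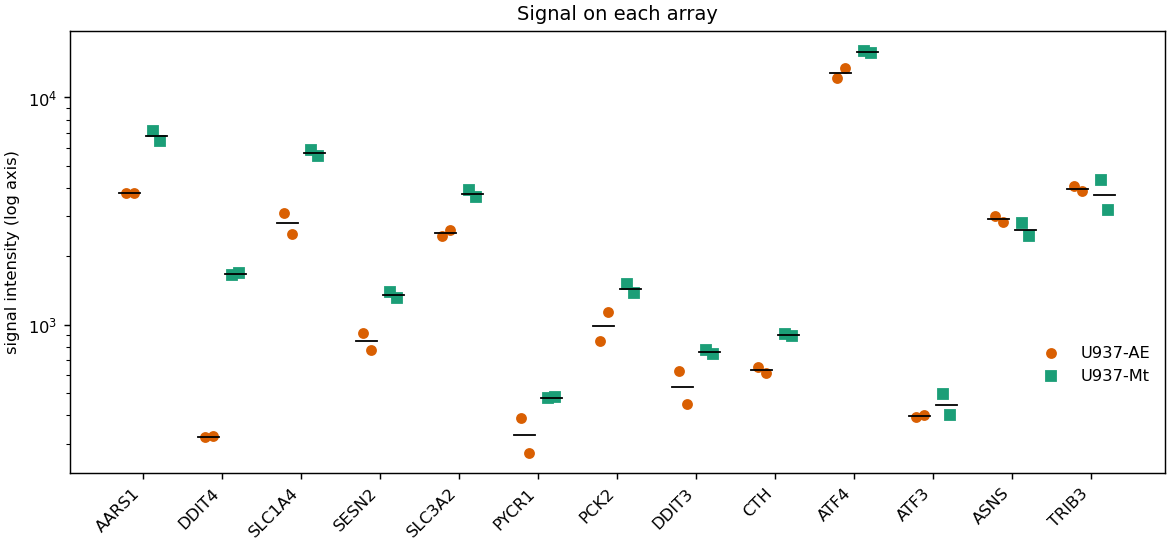
Signal intensity of single arrays on a log axis for the called genes, the 6 uncalled genes with the largest difference, and ATF4, ATF3, ASNS and TRIB3. Circles are U937-AE, squares U937-Mt and bars the geometric mean of the 2 copies. The lines are apart from each other in AARS1, DDIT4 and SLC1A4, and overlap in ATF3 and TRIB3. Levels of different genes are not comparable, since each probe set has its own response.

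Enzymes of serine, glycine and one-carbon synthesis had a median of -0.01 over 5 measured genes, which turned to 0.26 after the median shift. PHGDH, PSAT1 and PSPH, the successive steps from a glycolytic intermediate to serine, differed by -0.10, 0.06 and 0.17. PHGDH and PSAT1 overlapped between the lines, PHGDH with 5955 and 5257 in U937-AE, compared with 5872 and 6102 in U937-Mt. The mitochondrial folate enzymes SHMT2 and MTHFD2 differed by -0.26 and -0.01. None was called.

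ASNS, the asparagine synthetase and a classical ATF4 target, gave 3021 and 2848 in U937-AE, compared with 2804 and 2456 in U937-Mt. The arrays of U937-AE were the higher ones by a small margin (0.16, range 0.02 to 0.30), and ASNS stayed above 0 under all 4 scalings. ALDH18A1, the enzyme that opens proline synthesis, differed by 0.01 with overlapping lines. Its dimmer probe set was above 0 at 0.45 (range 0.26 to 0.63) and was not called.

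PYCR1, which closes proline synthesis, had 391 and 273 in U937-AE, compared with 475 and 480 in U937-Mt (-0.55, range -0.81 to -0.28). PCK2, the mitochondrial enzyme that makes phosphoenolpyruvate, had 852 and 1135 against 1506 and 1381 (-0.55, range -0.82 to -0.28). In both genes the lines did not overlap, and the U937-AE copies differed more from each other than the U937-Mt copies did. Neither was called.

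CTH, which makes cysteine from cystathionine, gave 655 and 615 in U937-AE, compared with 909 and 897 in U937-Mt. The lines were apart, at -0.51 (range -0.56 to -0.45), but under 1.5-fold in every comparison. CBS, the preceding step, was below the floor on all 4 arrays.

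Transporters of amino acids held the third called gene. SLC1A4, which carries alanine, serine, cysteine and threonine, gave 3109.9 and 2522 in U937-AE, compared with 5902 and 5537 in U937-Mt. The lines did not overlap and SLC1A4 was 2.04-fold lower in U937-AE, with a log2 difference of -1.03 (range -1.23 to -0.83). Of its 4 other probe sets, 3 were called lower as well, at -1.33, -1.39 and -1.52, and the other was at -0.61 and not called.

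SLC3A2 encodes the heavy chain CD98 that brings SLC7A5, SLC7A11 and related light chains to the membrane. It gave 2461 and 2611 in U937-AE, compared with 3908 and 3651 in U937-Mt, with the lines apart at -0.58 (range -0.67 to -0.48), and was not called. SLC7A5, the light chain for large neutral amino acids, differed by -0.42, with 5644 and 5927 against 7682 and 7743. SLC3A2 and SLC7A5 stayed below 0 under all 4 scalings. The cystine light chain SLC7A11 differed by -0.02 and the glutamine carrier SLC1A5 by -0.10, both with overlapping lines. SLC7A1, for cationic amino acids, was at -0.19 and turned sign with the median shift. The 7 transporters had a median of -0.19, which turned to 0.08 after the median shift. SLC38A2, a neutral amino acid carrier regulated by amino acid supply, was the only transporter above 0 under the authors' scaling, at 0.23. XPOT, which exports tRNA from the nucleus, differed by 0.14 with overlapping lines.

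Over the 28 measured response genes the median was -0.18 (SD over genes 0.53), or -0.08 from that of all genes, and 19 were below 0. After the median shift it was 0.09, with 12 below 0. The copies did not overlap in 14 response genes with U937-AE lower and in 5 with U937-AE higher. Over synthetases and response together, these were 53.3% and 22.2% of the measured genes, beside 37.1% and 26.3% of all measured genes. After the median shift the 24 and 10 genes behind these shares became 11 and 22, beside 17.1% and 46.1% of all measured genes.

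Other probe sets gave a further view of the same pools. The 47 genes had 96 probe sets, of which 85 were measured, 8 were called lower and 0 higher. Over the array, 5.37% of the 23499 measured probe sets with a single symbol were lower and 2.66% higher. Of the 29 genes with more than 1 probe set, 3 had probe sets that differed in the call, namely SLC1A4, SESN2 and TARS1. TARS1 was at -0.09 by its bright probe set, with 9145 and 9065 in U937-AE, compared with 9817 and 9622 in U937-Mt, and was called lower by a dim probe set with 177 and 205 against 351 and 319 (-0.82).

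**Figure D3:**
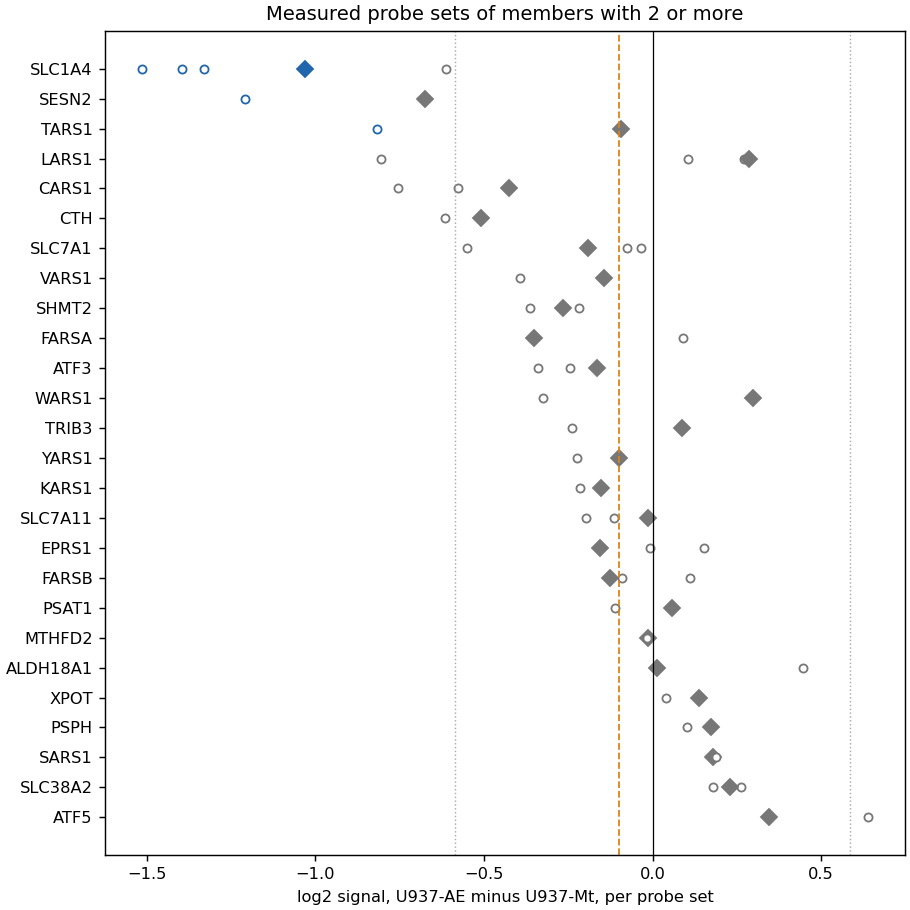
Difference in log2 signal, U937-AE minus U937-Mt, of each measured probe set of genes with 2 or more. Diamonds are the brightest probe set, which stands for the gene in the text, circles the others, and blue marks those called lower. Dotted lines mark 1.5-fold and the dashed line the median of all measured genes. SLC1A4 has 4 blue marks, and SESN2 and TARS1 1 each, away from their diamond.

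Genes with and without the composite motif were then set side by side. The 12 measured genes whose promoter window held it had a median difference of -0.20, with 2 called lower, AARS1 and SLC1A4. The 25 measured genes in the table without it had a median of -0.10, with DDIT4 called. Over all measured genes the median was -0.10 and 6.12% were called lower. The groups were small, and the difference between them was not tested. Within the windows printed above, AARS1 and SLC1A4 were called while ASNS (0.16), ATF3 (-0.16), GARS1 (-0.23), IARS1 (-0.10) and SLC1A5 (-0.10) were not.

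Genes around the response were read from lists of the same pathway. Of 14 genes for the eIF2 kinases, eIF2B and their feedback, all were measured, none was called and the median was 0.15, with 8 genes higher (57.1%) and 4 lower (28.6%) without overlap of the copies, beside 26.3% and 37.1% of all measured genes. With the median shift PPP1R15B was called higher, and with the spike-in scaling EIF2AK2 and EIF2AK3 were, where 7.04% and 10.6% of all measured genes were. EIF2AK4, which encodes GCN2, differed by 0.20 and EIF2AK3, which encodes PERK, by 0.33. The phosphatase subunits that reverse eIF2 phosphorylation went apart, PPP1R15A at -0.46 and PPP1R15B at 0.39. A dimmer probe set of PPP1R15A, with 45 and 59 against 289 and 216, was called lower, and its U937-AE signals lay below the floor (range -1.27 to -0.74).

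Of 17 further ATF4 targets 13 were measured, with 1 higher and 2 lower (15.4%), beside 2.60% higher and 6.12% lower of all measured genes. GADD45A, a stress and cell cycle checkpoint gene, was higher in U937-AE, with 338 and 425 against 78 and 131 in U937-Mt, where it lay below the floor. The bounded log2 difference was 1.34 (range 1.14 to 1.53), which makes the fold at least 2.52. JDP2, a repressor of the AP-1 family, was lower, with 1124 and 965 against 2531 and 2492 (-1.27, range -1.39 to -1.15). VEGFA, the angiogenic growth factor, was lower too, with 1339.5 and 1039.7 against 2518 and 2392 (-1.06, range -1.28 to -0.84), but was not called after the median shift or the spike-in scaling. GDF15, FGF21 and SLC6A9 were not measured. CEBPG was not called by its brightest probe set (-0.48), while a dimmer one was called lower, with 531 and 611 against 985 and 1087 (-0.86).

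Of 17 chaperones and enzymes of the endoplasmic reticulum stress response, all measured, HYOU1 was higher and none was lower. Of all measured genes 2.60% were higher and 6.12% lower. XBP1 and HERPUD1, a transcription factor and a degradation factor of this response, were at -0.62 and -0.67 and not called, though XBP1 was called lower after quantile normalization. HYOU1, a chaperone of the HSP70 family, gave 6611 and 5910 in U937-AE, compared with 3923 and 2850 in U937-Mt (0.90, range 0.59 to 1.21). The U937-Mt copies were less alike than those of U937-AE, though the lines did not overlap, and HYOU1 was not called after quantile normalization. The list's median was 0.09, or 0.36 after the median shift, which added DNAJC3 to the higher genes. After that shift 7.04% of all measured genes were called higher. DNAJB9 was not called by its brightest probe set (0.27), while a dimmer one was called higher, with 623 and 534 against 317 and 242 (1.06).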

How the data were processed

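The authors computed the signal intensity of each probe set with GCOS at default settings and deposited it on a linear scale. The GCOS version was not given in the sources used here. The mean of each array after trimming 2% at both ends lay at 499.8 to 499.9. Of 54675 probe sets, 62 were controls, 41097 had a single gene symbol, 1801 had several and named no gene, and 11777 were not named in the annotation table.

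From these intensities, values under the median of an array (controls left out) were set to that median and log2 was taken. Each gene was read from its brightest probe set, by mean log2 signal over the arrays without the floor. It was called when all 4 array comparisons exceeded 1.5-fold one way. No test across the lines was made, because the extraction protocol in the labels and the methods describe 1 pool per line, although sample titles call the arrays replicas. Medians and counts of lists stand beside those of all genes.

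The genes and lists were chosen with earlier results of these data known. Signals of single arrays are given for called genes, the 6 uncalled genes with the largest difference, and ATF4, ATF3, DDIT3, ASNS and TRIB3, as the rule for named genes asks. Signals of CARS1, LARS1, HARS1, PHGDH, SLC7A5, CHAC1, NCAM1 and CD79A were added after their values were seen. So were the differences named in the related lists beyond the called genes.

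Promoter sequences are from RefSeq, GRCh38.p14. The table does not list LARS1, NUPR1, PSPH, PYCR1, SHMT2, SLC7A11, VARS1 and YARS1. As alternatives, the arrays were quantile normalized, shifted to a common median or scaled to 18 hybridization spike-in probe sets. Further ones were no floor, floors at the 25th and 75th percentile, 2-fold, the mean of the arrays, limma with and without the array number as a block (adjusted p under 0.05), the methods' t-test, other probe sets, and each array left out. SESN2 was added to them after the data were seen. R 4.3.3 (limma 3.58.1) and Python 3.11.15 (numpy 2.4.6, pandas 2.3.3, scipy 1.17.1, matplotlib 3.10.9) were used.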

Additional observations from a re-analysis of the deposited data

How the results depend on the processing

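With arrays shifted to the same median, 0 synthetases and 1 response gene were called lower, beside 2.99% of all measured genes. The medians turned to 0.14 and 0.092. With the spike-in scaling 2 synthetases were called higher (10.6% of all genes were). There 0 synthetases and 1 response gene were lower (2.24% of all genes were), and the medians turned to 0.22 and 0.17. Of all called genes 70.2% were lower under the authors' scaling, 62.1% after quantile normalization, 29.8% after the median shift and 17.5% with the spike-ins. Quantile normalization moved the synthetase median to -0.16. From the median of all genes, the synthetase median lay -0.14 to 0.03 away and the response median -0.18 to 0.003 over 12 alternatives.

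At 2-fold 0 synthetases and 1 response gene were lower, beside 2.03% of all measured genes. By the methods' t-test 0 and 2 were, beside 2.98% of all measured genes. Without the suffixes _x_at and _s_at 1 response gene was lower, since DDIT4 had no other probe set, beside 5.98% of all measured genes. The response median was then -0.10, as it was with a floor at the 75th percentile (-0.10). Leaving out 1 array gave 1 synthetase in every case and 2 to 5 response genes: 5 without U937-AE replicate 1 (DDIT3, DDIT4, SESN2, PYCR1 and SLC1A4), 3 without U937-AE replicate 2 (with PCK2), and 4 without U937-Mt replicate 2 (with CHAC1 and SESN2). Leaving out 1 array put 8.66% to 11.9% of all genes on the lower side, against 6.12%. Fewer than 4 comparisons then had to pass, so the rule was looser and these shares are not like for like. The medians then ranged from -0.15 to -0.080 for synthetases and from -0.26 to -0.13 for response genes. The cause of the shifts in the medians was not tested.

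The array number as a replicate block in limma gave 1 synthetase and 3 response genes lower, AARS1, DDIT4, SESN2 and SLC1A4, as limma without the block did. Over all genes the block gave 570 higher and 1433 lower, against 513 and 1142 without it and 336 and 791 by the rule of the text. Deviations of same-numbered arrays correlated with r = 0.06, so the numbers were not shown to pair the arrays. Limma's p-values cover the spread between copies only. The SD of a measured gene of the set over the 4 comparisons had a median of 0.10 (0.0075 to 0.37). Of 17 alternatives AARS1 was called lower in 13, DDIT4 in 16, SLC1A4 in 14 and SESN2 in 6, including the mean of the arrays.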
